A study of Mus musculus with 4 samples.

Results

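Resident macrophage genes and the 3 genes of complement C1q were described in whole mouse hearts under mineralocorticoid excess. The 10 genes were chosen by symbol and not by a cut-off on their values, though with earlier results of these data known. They were the receptors Csf1r, Adgre1, Cd14, Cd163 and Mrc1, the lysozymes Lyz1 and Lyz2, and the C1q chains C1qa, C1qb and C1qc. Every array probe whose platform gene symbol was one of these was taken, which gave 16 of 25697 probes and 9 of 16593 named genes. No probe carried the name Csf1r, the receptor for macrophage colony-stimulating factor, so that gene was not analysed here. Of the 16 probes, 7 were above the detection limit on all 4 arrays, 11 on at least 1 and 5 on none.

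Macrophages are the most abundant resident leukocytes of the healthy mouse heart, where they clear dying cells and debris. They recognise their targets through surface receptors: Mrc1 encodes the mannose receptor (CD206), Cd163 the scavenger receptor for haemoglobin bound to haptoglobin, Cd14 the co-receptor that passes lipopolysaccharide to Toll-like receptor TLR4, and Adgre1 the F4/80 antigen used to mark mouse macrophages. C1q, which tissue macrophages secrete, is assembled from the A, B and C chains and starts the classical complement pathway by binding antibody complexes and dying cells. Lyz2 encodes the lysozyme of mouse myeloid cells, and Lyz1 is best known from the Paneth cells of the mouse intestine.

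The study set genotype against treatment in C57Bl6 mice of 8 to 9 weeks. CM-MRKO mice carried MR flox/flox alleles with MLC2v Cre, which removes the mineralocorticoid receptor from cardiomyocytes and leaves the gene intact in other cells, macrophages included. WT mice carried the same floxed alleles without Cre. All mice lacked 1 kidney and received either deoxycorticosterone with salt (DOC/salt) or vehicle for 8 days, giving CM-MRKO DOC/salt, CM-MRKO vehicle, WT DOC/salt and WT vehicle groups. RNA from 8 hearts was pooled per group and each pool went to 1 Illumina bead array, so no group has a replicate and no difference between 2 pools could be tested. In whole-heart RNA, fewer macrophages and less of a transcript in each macrophage cannot be told apart.

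Values are deposited bead intensities in arbitrary units, and differences are of log2 intensity after background correction and quantile normalization. Chemosensory receptor genes, taken here as not expressed in the heart, served as the background: a probe counted as detected where a share under 0.01 of their 1339 probes was as bright, a limit of 121.8 in CM-MRKO DOC/salt, 119.9 in CM-MRKO vehicle, 113.7 in WT DOC/salt and 108.8 in WT vehicle hearts. A difference of 1.5-fold (0.58 on the log2 scale) was called. The arrays differed in brightness, with median intensities of 102.7 for CM-MRKO DOC/salt, 98.6 for CM-MRKO vehicle, 92.6 for WT DOC/salt and 91.5 for WT vehicle. The WT vehicle array stood apart: of 6836 detected genes 311 were dimmer there by 1.5-fold or more than on each of the remaining arrays, against 1 to 8 such genes on those arrays, and 0 of the 9 measured genes were among the 311. The targeted gene Nr3c2 had no named probe. Of 8 cardiomyocyte markers 6 to 7 were detected on each array, and the liver gene Alb, the lung gene Sftpc and the pancreatic gene Ins2 were detected on none.

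**Figure D1:**
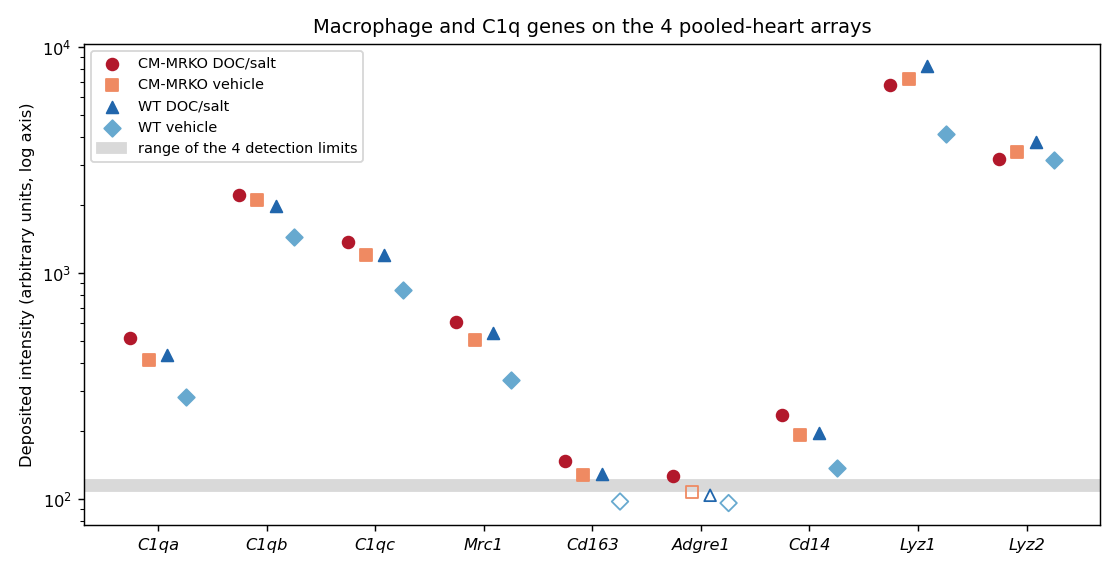
Deposited intensity (log axis) of the brightest probe of each of the 9 measured genes on the 4 arrays, 1 pool of 8 hearts each. Filled symbols are detected values, open symbols are not, and the grey band spans the 4 detection limits. All 9 genes were dimmest on the WT vehicle array, 7 were brightest on the CM-MRKO DOC/salt array and the 2 lysozymes on the WT DOC/salt array.

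No macrophage or C1q gene differed by 1.5-fold in the comparisons without the WT vehicle pool. In CM-MRKO hearts, 0 of 9 genes were called higher and 0 lower after DOC/salt, where 0.629% of all 6673 genes tested were called higher and 0.435% lower. At so low a share of all genes, 0 of 9 says nothing particular about the 9. Their median difference was 0.21 on the log2 scale, against 0.01 for all genes. Of the 9, 6 lay beyond the technical spread of a difference, 0.17, which was taken from pairs of probes for the same gene and holds no variation between animals. This spread is narrow: the differences of all genes had an SD of 0.20, with 5th and 95th percentiles of -0.32 and 0.35. The share of all genes beyond it was not counted, so 6 of 9 is not read as an excess. The 6 were Cd14, C1qa, Cd163 and Mrc1 above 0, at percentiles 86.4 to 92.6 of all genes tested, Lyz2 below 0, at percentile 15.5, and Adgre1 above 0. Adgre1 was tested only because the DOC/salt pool, where it was higher, detected it. Its difference there was bounded at no more than at least 1.01-fold, so its place among the 6 carries no weight. Between the genotypes under DOC/salt, 0 of 9 were called in either direction (0.896% of all genes higher, 0.956% lower in CM-MRKO), with a median of 0.07 for the 9 genes and 0.02 for all. Of the 9, 4 lay beyond the technical spread of 0.18, Adgre1 and Cd14 above 0 and Lyz1 and Lyz2 below 0. The differences of all genes had an SD of 0.23 there, and Adgre1 was again tested only through the CM-MRKO DOC/salt pool. The share of all genes beyond this spread was not counted either, so 4 of 9 is not read as an excess. These 2 comparisons do not use the WT vehicle array, but they share the CM-MRKO DOC/salt pool.

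The comparisons with the WT vehicle pool had far more calls over all genes. In WT hearts 1 of 8 tested genes, Cd163, was called higher after DOC/salt (8.98% of all genes) and 0 lower (4.08%), with a median of 0.06 for the 8 genes and -0.05 for all. Between the vehicle pools 0 of 8 were called higher in CM-MRKO (7.59% of all genes) and 0 lower (2.56%), with a median of -0.08 for the 8 genes and -0.04 for all. In the difference of the responses, CM-MRKO minus WT, 0 of 9 were called higher (6.77% of all genes) and 1, Lyz1, lower (10.3%), with a median of 0.13 for the 9 genes and 0.05 for all.

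A fit of both factors to all 4 arrays gave the only test, on the assumption that treatment and genotype add. With limma's moderated test and Benjamini-Hochberg adjustment over 6836 genes, 0 of 9 genes passed an adjusted p of 0.05 for DOC/salt and 0 of 9 for genotype, as did 0 (0%) of all genes. At an unadjusted p under 0.05 these were 0 of 9 for DOC/salt (4.05% of all genes) and 1 of 9, Lyz2, for genotype (3.82%). The adjusted p of the 9 genes lay between 0.979 and 0.999 for both effects.

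**Figure D2:**
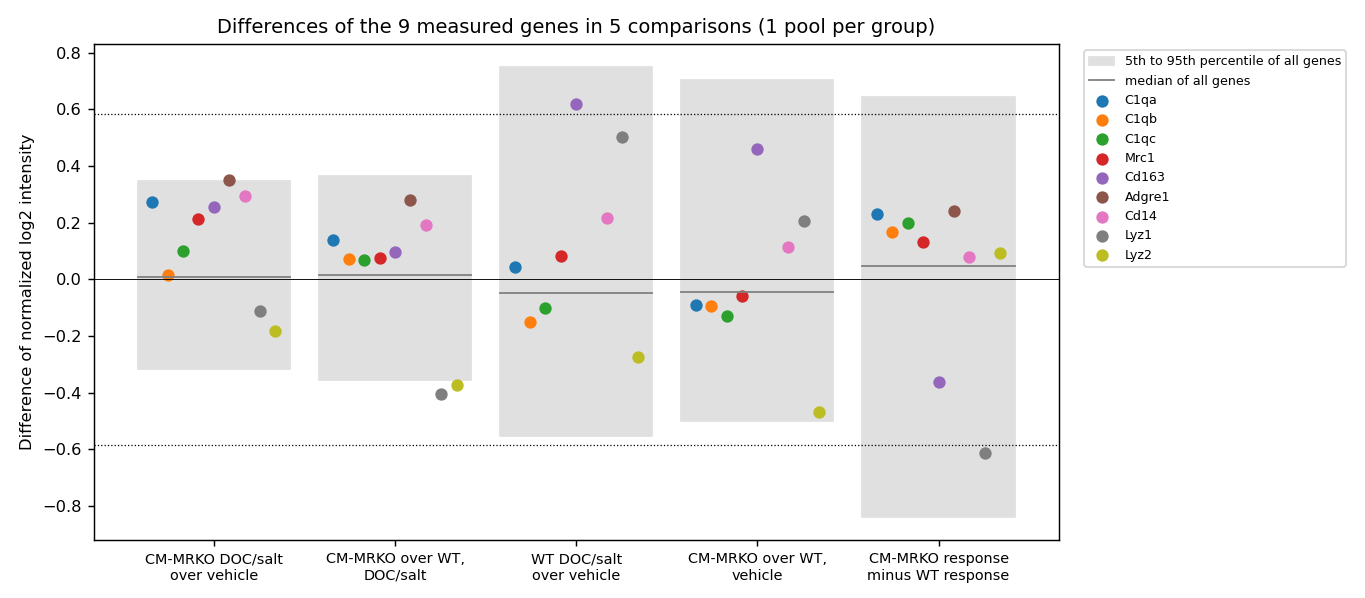
Differences of normalized log2 intensity for the 9 measured genes (coloured points) in the 5 comparisons, with the 5th to 95th percentile of all tested genes (grey boxes) and their median (grey line). Dotted lines mark 1.5-fold. In the first 2 comparisons every point lies inside the dotted lines; Cd163 in WT DOC/salt over vehicle and Lyz1 in the difference of responses lie outside.

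The genes C1qa, C1qb and C1qc lie side by side on mouse chromosome 4, with 0 other genes between them in RefSeq. The promoter windows of C1qb and C1qc, 250 bases before to 50 after the annotated start, are shown because these neighbours had nearly the same pattern over the 4 arrays. They are RefSeq sequences of build GRCm38.p6, both on the minus strand and written 5′ to 3′. Capitals mark the hexamer GAGGAA or its reverse complement TTCCTC, the core bound by PU.1, the transcription factor of the myeloid lineage.
C1qb, chr4:136886151-136886450: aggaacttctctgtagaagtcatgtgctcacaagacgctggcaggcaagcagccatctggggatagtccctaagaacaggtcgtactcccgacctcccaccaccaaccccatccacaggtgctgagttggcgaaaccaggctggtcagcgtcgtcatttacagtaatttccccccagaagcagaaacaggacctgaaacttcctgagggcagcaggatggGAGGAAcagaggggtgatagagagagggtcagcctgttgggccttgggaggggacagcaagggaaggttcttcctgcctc
C1qc, chr4:136892865-136893164: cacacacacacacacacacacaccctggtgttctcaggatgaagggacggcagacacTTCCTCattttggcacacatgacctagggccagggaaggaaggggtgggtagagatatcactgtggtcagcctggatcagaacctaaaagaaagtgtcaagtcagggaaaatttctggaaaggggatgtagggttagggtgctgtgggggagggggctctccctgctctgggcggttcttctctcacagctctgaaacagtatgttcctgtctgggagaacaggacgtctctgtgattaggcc

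The hexamer occurred once in each window, 30 bases before the start in C1qb and 193 bases before it in C1qc. A promoter window was given for 6 of the 10 genes, and 3 of these 6 held the hexamer on either strand (C1qb, C1qc and Mrc1), where 28.3% of 32851 windows in the table did. The 2 windows were 45.3% identical in a global alignment. The full palindrome of the hormone response element shared by the mineralocorticoid and glucocorticoid receptors was in none of the 6 windows and in 0.00913% of all windows, which are short against the distances at which these receptors can bind.

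C1qa, which encodes the A chain, had an intensity of 515.5 in CM-MRKO DOC/salt, 410.8 in CM-MRKO vehicle, 435.5 in WT DOC/salt and 283.3 in WT vehicle hearts. C1qb, the B chain, had 2207.6 in CM-MRKO DOC/salt, 2097.3 in CM-MRKO vehicle, 1971.2 in WT DOC/salt and 1447.0 in WT vehicle hearts. C1qc, the C chain, had 1362.8 in CM-MRKO DOC/salt, 1201.4 in CM-MRKO vehicle, 1201.5 in WT DOC/salt and 836.3 in WT vehicle hearts. As deposited, each of the 3 genes was brightest in the CM-MRKO DOC/salt pool, dimmest in the WT vehicle pool and close together in the other 2 pools. After normalization C1qb and C1qc were highest in the WT vehicle pool.

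After DOC/salt in CM-MRKO hearts, the normalized log2 value of C1qa was higher by 0.27, that of C1qc by 0.10 and that of C1qb by 0.02. C1qa lay beyond the technical spread of 0.17, and C1qb and C1qc within it. Between the genotypes under DOC/salt the 3 genes were higher in CM-MRKO by 0.14 for C1qa, 0.07 for C1qb and 0.07 for C1qc, all within the spread of 0.18. With the WT vehicle array left out of the normalization, the C1q differences were 0.02 to 0.27 in the CM-MRKO response and 0.07 to 0.14 between genotypes under DOC/salt.

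In WT hearts after DOC/salt, C1qa differed by 0.04, C1qb by -0.15 and C1qc by -0.10 on the log2 scale, within a technical spread of 0.34. CM-MRKO vehicle hearts differed from WT vehicle hearts by -0.09 for C1qa, -0.10 for C1qb and -0.13 for C1qc, again within the spread of 0.34. In the additive fit the DOC/salt effect was 0.16 ± 0.19 (SE) for C1qa, -0.07 ± 0.19 for C1qb and -0.0011 ± 0.19 for C1qc, with limma adjusted p of 0.979, 0.991 and 0.999. The genotype effect, CM-MRKO over WT, was 0.02 ± 0.19, -0.01 ± 0.19 and -0.03 ± 0.19 for the same genes, each with an adjusted p of 0.999.

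The direction of the C1q genes against WT vehicle depended on how the arrays were scaled. On the deposited values all 3 were higher in WT DOC/salt than in WT vehicle hearts, by 0.45 to 0.62 on the log2 scale, but the median of all genes was then 0.39. Relative to that median the C1q genes were at 0.05 to 0.23, and relative to the median after quantile normalization at -0.10 to 0.09. Between the vehicle pools the deposited values gave 0.52 to 0.54 with a median of 0.44 for all genes, so that the C1q genes lay 0.08 to 0.09 above it; with quantile normalization they lay 0.05 to 0.09 below the median of all genes. The C1q genes thus followed the brightness of the whole array to within 0.23 in these 2 comparisons.

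**Figure D3:**
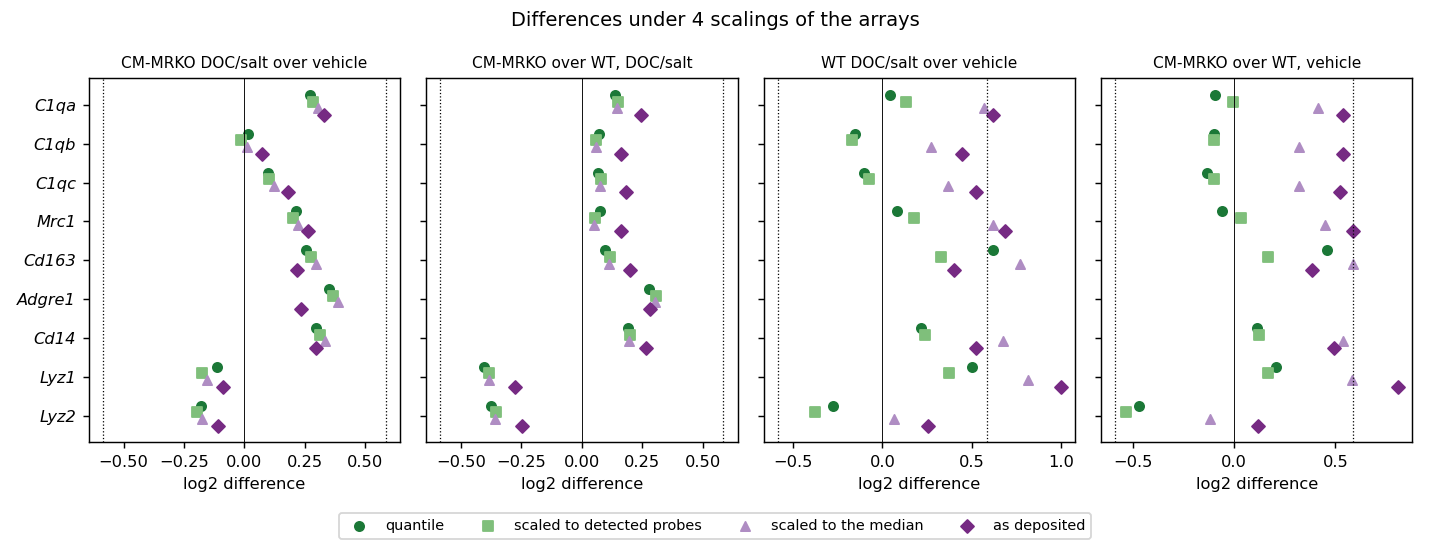
Log2 difference of each of the 9 genes in the 4 pairwise comparisons under 4 scalings: quantile normalization, scaling to detected probes, scaling to the median, and the values as deposited. Dotted lines mark 1.5-fold. The symbols of a gene lie close together in the first 2 comparisons and spread apart in the 2 that use the WT vehicle array, where all 3 C1q genes lie above 0 on the deposited values and C1qb and C1qc lie below 0 after quantile normalization.

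Mrc1, the mannose receptor gene, had an intensity of 604.6 in CM-MRKO DOC/salt, 504.5 in CM-MRKO vehicle, 541.1 in WT DOC/salt and 335.8 in WT vehicle hearts. Its order over the pools was that of C1qa. The normalized log2 value was higher by 0.21 after DOC/salt in CM-MRKO hearts, beyond the technical spread of 0.17, and by 0.07 in CM-MRKO over WT hearts under DOC/salt, within the spread. It differed by 0.08 in the WT response and by -0.06 between the vehicle pools. The difference between the vehicle pools was 0.45 when arrays were scaled to their medians and 0.59 as deposited. All genes then had medians of 0.37 and 0.44.

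Cd14 had 236.4 in CM-MRKO DOC/salt, 192.6 in CM-MRKO vehicle, 196.7 in WT DOC/salt and 137.0 in WT vehicle hearts. The CM-MRKO DOC/salt pool was the brightest, the WT vehicle pool the dimmest, and the other 2 were close together. Its log2 difference was 0.29 after DOC/salt in CM-MRKO hearts and 0.19 in CM-MRKO over WT hearts under DOC/salt, beyond technical spreads of 0.17 and 0.18. After DOC/salt in WT hearts it was 0.22 and between the vehicle pools 0.11, both within the spread of 0.34, and with median scaling they were 0.68 and 0.54, where all genes had medians of 0.39 and 0.37. In the additive fit the DOC/salt effect on Cd14 was 0.26 ± 0.19 (SE), with a limma adjusted p of 0.979.

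Cd163 had 147.8 in CM-MRKO DOC/salt, 127.1 in CM-MRKO vehicle, 128.8 in WT DOC/salt and 97.5 in WT vehicle hearts, where the last value was under the detection limit. It was the gene called higher in the WT response, with a normalized log2 difference of 0.62, but with the WT vehicle value set to the lowest detected signal of its array the difference was at least 1.06-fold. Between the vehicle pools the difference was 0.46, and the same bound was under 1, so no fold is given. On the deposited values Cd163 differed by 0.40 in the WT response, where all genes had a median of 0.39, and it was not called without background correction (0.29) either. After DOC/salt in CM-MRKO hearts, where both arrays detected it, Cd163 was higher by 0.26. In the additive fit its DOC/salt effect was 0.44 ± 0.20 (SE), with an unadjusted p of 0.0504 and a limma adjusted p of 0.979. A second Cd163 probe, between 75.5 and 92.1, was detected on no array.

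Adgre1 was close to background, with 126.4 in CM-MRKO DOC/salt, 107.5 in CM-MRKO vehicle, 103.9 in WT DOC/salt and 96.0 in WT vehicle hearts for its brightest probe. Only the CM-MRKO DOC/salt value was detected, and it exceeded the lowest detected signal of CM-MRKO vehicle by at least 1.01-fold and that of WT DOC/salt by at least 1.01-fold. The other 2 Adgre1 probes were detected on no array. The F4/80 gene therefore gave no usable difference between the pools.

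The lysozyme genes Lyz1 and Lyz2 are neighbours on mouse chromosome 10, with 0 other genes between them in RefSeq, and are close copies of each other. Their promoter windows are shown because the 2 genes are so alike in sequence and their brightest probes differed in pattern. Both are RefSeq sequences of build GRCm38.p6 on the minus strand, written 5′ to 3′, and capitals mark the bases that differ in a global alignment of the 2 windows.
Lyz1, chr10:117292819-117293118: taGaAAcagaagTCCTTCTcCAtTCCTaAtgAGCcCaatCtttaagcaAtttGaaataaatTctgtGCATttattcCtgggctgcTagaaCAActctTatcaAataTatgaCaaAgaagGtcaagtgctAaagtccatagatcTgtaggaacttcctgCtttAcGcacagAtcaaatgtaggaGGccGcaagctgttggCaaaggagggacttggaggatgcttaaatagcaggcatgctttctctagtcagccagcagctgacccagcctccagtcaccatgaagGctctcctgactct
Lyz2, chr10:117282223-117282522: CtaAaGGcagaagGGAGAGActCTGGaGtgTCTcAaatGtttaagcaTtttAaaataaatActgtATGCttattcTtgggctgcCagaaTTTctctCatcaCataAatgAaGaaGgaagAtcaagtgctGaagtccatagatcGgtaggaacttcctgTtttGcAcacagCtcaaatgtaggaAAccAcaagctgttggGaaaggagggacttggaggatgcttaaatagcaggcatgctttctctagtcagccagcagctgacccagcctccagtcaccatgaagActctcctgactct

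The windows were 82.5% identical, with an unbroken identical stretch of 86 bases and 99 identical bases among the last 100. Because the transcripts are alike too and the probe sequences were not used here, how far a probe of one lysozyme gene also bound the other transcript is uncertain.

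The brightest Lyz1 probe had 6795.1 in CM-MRKO DOC/salt, 7219.1 in CM-MRKO vehicle, 8225.2 in WT DOC/salt and 4117.4 in WT vehicle hearts. The brightest Lyz2 probe had 3179.9 in CM-MRKO DOC/salt, 3426.1 in CM-MRKO vehicle, 3770.6 in WT DOC/salt and 3158.7 in WT vehicle hearts. As deposited, both were brightest in the WT DOC/salt pool, unlike the other 7 genes, and the Lyz1 probe had a wider range. After normalization Lyz1 was still highest there, but Lyz2 was highest in the WT vehicle pool, as were C1qb and C1qc.

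Under DOC/salt both lysozyme probes were lower in CM-MRKO than in WT hearts, with normalized log2 differences of -0.41 for Lyz1 and -0.37 for Lyz2. These lay beyond the technical spread of 0.18 and at percentiles 3.35 and 4.3 of all genes tested, but short of 1.5-fold. After DOC/salt in CM-MRKO hearts they differed by -0.11 and -0.18, where the other 7 genes were above 0, except that C1qb was at -0.01 with scaling to detected probes. In the additive fit Lyz2 had a genotype effect of -0.42 ± 0.19 (SE), CM-MRKO over WT, with an unadjusted p of 0.04999 and a limma adjusted p of 0.999.

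In WT hearts after DOC/salt the Lyz1 probe was higher by 0.50 and the Lyz2 probe differed by -0.28. The deposited values gave 0.998 for Lyz1 and 0.26 for Lyz2 in that comparison, where all genes had a median of 0.39. The Lyz1 difference of responses, CM-MRKO minus WT, was -0.61, past 1.5-fold. It was -1.09 as deposited and -0.97 with arrays scaled to their medians, where all genes had medians of -0.29 and -0.36. With the mean of the detected Lyz1 probes it was 0.06.

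The other probes of the lysozyme genes went against the brightest ones. A second Lyz2 probe had 181.6 in CM-MRKO DOC/salt, 146.0 in CM-MRKO vehicle, 142.5 in WT DOC/salt and an undetected 91.9 in WT vehicle hearts. Its log2 difference was 0.34 in CM-MRKO over WT hearts under DOC/salt and 0.37 after DOC/salt in CM-MRKO hearts, opposite in sign to the bright Lyz2 probe. As deposited, its order over the pools was that of C1qb, but after normalization it was lowest in the WT vehicle pool, where C1qb was highest. In WT hearts it was at least 1.24-fold higher after DOC/salt. A second Lyz1 probe was detected in CM-MRKO DOC/salt hearts alone, at 136.0, with 116.3 in CM-MRKO vehicle, 105.0 in WT DOC/salt and 108.5 in WT vehicle hearts. The third probe of each gene was detected on no array. With the mean over detected probes, the genotype difference under DOC/salt was 0.01 for Lyz1 and -0.02 for Lyz2, so no direction of the lysozyme genes held across their probes.

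**Figure D4:**
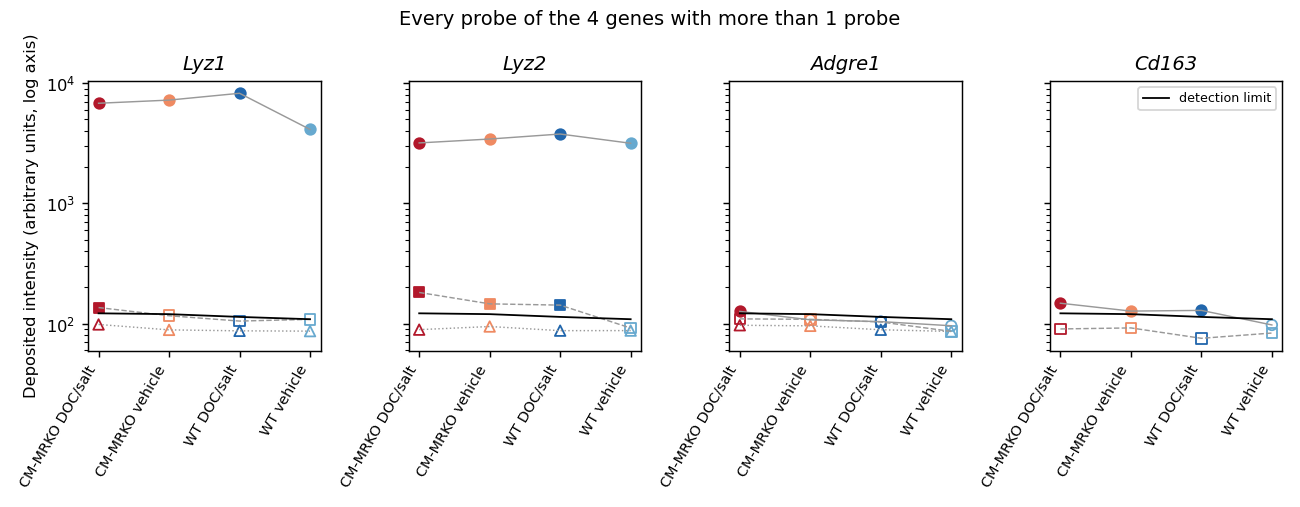
Deposited intensity (log axis) of every probe of Lyz1, Lyz2, Adgre1 and Cd163 on the 4 arrays; each line with its own symbol is 1 probe, filled where detected, and the black line joins the detection limits. Each lysozyme gene has 1 probe at 3158.7 or more on every array and 2 at 181.6 or less, and the Adgre1 and Cd163 probes lie at 147.8 or less.

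Other genes of the same cells and pathways were taken from lists chosen with earlier results of these data known. Of 20 further macrophage markers 16 had a probe and 9 were detected, all 9 on every array. In the CM-MRKO response 0 of 9 were called in either direction with a median of -0.05, and between genotypes under DOC/salt 0 of 9 with a median of -0.07. Cbr2, a carbonyl reductase gene, was at 748.6 in CM-MRKO DOC/salt, 607.5 in CM-MRKO vehicle, 635.4 in WT DOC/salt and 463.5 in WT vehicle hearts, a difference of 0.26 in the CM-MRKO response. F13a1, which encodes the coagulation factor XIII A subunit, was at 864.2 in CM-MRKO DOC/salt, 796.5 in CM-MRKO vehicle, 829.8 in WT DOC/salt and 327.6 in WT vehicle hearts, a difference of 0.03 in the CM-MRKO response. The WT vehicle pool was low for both genes, and more so for F13a1. Stab1, a scavenger receptor gene, was at 375.8 in CM-MRKO DOC/salt, 344.8 in CM-MRKO vehicle, 287.5 in WT DOC/salt and 234.4 in WT vehicle hearts. Folr2, the folate receptor beta gene of resident macrophages, was at 361.0 in CM-MRKO DOC/salt, 353.6 in CM-MRKO vehicle, 283.4 in WT DOC/salt and 231.0 in WT vehicle hearts. Both were brighter in the 2 CM-MRKO pools than in the 2 WT pools as deposited, an order shared with the median brightness of the arrays. The normalized log2 differences between genotypes under DOC/salt were 0.35 for Stab1 and 0.30 for Folr2, short of 1.5-fold. Between the vehicle pools they were -0.04 for Stab1 and 0.03 for Folr2, so the genotype difference was not seen there after normalization. In the WT response 2 of the 9 were called higher, F13a1 at 0.82 and Fcgr3, an Fc receptor gene, at 0.69, and 0 lower, where 8.98% of all genes were called higher and 4.08% lower. The median of the 9 was -0.21, against -0.05 for all genes. Between the vehicle pools 1 of 9, F13a1 at 0.72, was called higher in CM-MRKO (7.59% of all genes) and 0 lower, with a median of 0.03. Lyve1, Timd4, Fcgr1, Trem2, Maf, Ctss and Itgam were not detected on any array, so the resident macrophage label rests on few of its usual markers here.

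Of 28 other complement genes 23 had a probe and 12 were tested in the CM-MRKO response, with 0 called and a median of 0.03. Serping1, the C1 inhibitor gene, was at 3472.4 in CM-MRKO DOC/salt, 3284.4 in CM-MRKO vehicle, 3237.4 in WT DOC/salt and 2251.3 in WT vehicle hearts, with log2 differences of 0.01 in the CM-MRKO response and -0.04 in the WT response. Clu, which encodes the complement inhibitor clusterin, was at 4606.5 in CM-MRKO DOC/salt, 3902.6 in CM-MRKO vehicle, 4198.7 in WT DOC/salt and 2712.4 in WT vehicle hearts, with differences of 0.15 and 0.12. The only complement gene called in any pairwise comparison was C8b, a gene of the membrane attack complex, at -0.63 in the WT response, where 1 of 10 was called lower (4.08% of all genes). Its intensities of 115.1 in WT DOC/salt and 121.0 in WT vehicle hearts were close to the detection limits of 113.7 and 108.8. Between genotypes under DOC/salt 0 of 12 were called, with a median of -0.02.

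For the TLR4 pathway that Cd14 serves, 0 of 8 tested genes were called in the CM-MRKO response (median 0.12) and 0 of 8 between genotypes under DOC/salt (median 0.07). Ly96, which encodes the MD-2 partner of TLR4, was the 1 of 7 tested genes called higher in the WT response (8.98% of all genes). It was also the 1 of 7 called higher in CM-MRKO between the vehicle pools (7.59%). It read 152.3 in CM-MRKO vehicle, 154.2 in WT DOC/salt and an undetected 86.9 in WT vehicle hearts. The bounds were at least 1.42-fold in the WT response and at least 1.31-fold between the vehicle pools, both short of 1.5-fold. Tlr4 itself was detected on no array. For the haemoglobin and haem handling that Cd163 serves, 0 of 7 tested genes were called in any of the 4 pairwise comparisons, with medians between -0.16 and 0.01. Of the genes around the missing Csf1r, its ligand genes Csf1 and Il34 were detected on no array, and 0 of 5 tested genes of that list were called in any pairwise comparison. Of 16 lysosomal genes, 0 of 11 tested were called in the CM-MRKO response and 0 of 11 between genotypes under DOC/salt, each with a median of 0.06. In the WT response 3 of 10 were called higher (8.98% of all genes), with a median of -0.01, and between the vehicle pools the same 3 of 10 (7.59%), with a median of -0.01. Ctsb, the cathepsin B gene, was at 1220.0 in CM-MRKO DOC/salt, 1300.6 in CM-MRKO vehicle, 1317.9 in WT DOC/salt and 145.6 in WT vehicle hearts, a log2 difference of 3.23 in the WT response. Lamp2, a lysosomal membrane protein gene, was at 1259.8 in CM-MRKO DOC/salt, 1117.2 in CM-MRKO vehicle, 1268.0 in WT DOC/salt and 186.2 in WT vehicle hearts, a difference of 2.59. Of the 4 pools, only WT vehicle had a low value for either gene. The third, Ctsz, the cathepsin Z gene, was undetected in WT vehicle hearts. Its bound was under 1 in the WT response, so no fold is given, and at least 1.25-fold between the vehicle pools. Both fall short of 1.5-fold, so its place in both counts rests on an undetected value.

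Markers of other leukocytes were set beside the group. Of 11 neutrophil markers 6 were detected in CM-MRKO DOC/salt, 5 in CM-MRKO vehicle, 4 in WT DOC/salt and 1 in WT vehicle hearts. The summed intensity of the 11 was 2962.4, 2110.6, 1703.8 and 1209.4 in that order of pools. These sums are of deposited values, so they carry the brightness of each array, and 5 of the 11 markers were detected on no array. In the CM-MRKO response 2 of 6 were called higher (0.629% of all genes), with a median of 0.34, and between genotypes under DOC/salt 4 of 6 (0.896%), with a median of 0.87. Of these 4, Ltf and Retnlg were undetected in WT DOC/salt hearts and were tested only through the CM-MRKO DOC/salt pool, where they were high. Their bounds were at least 1.07-fold for Ltf, which falls short of 1.5-fold, and at least 2.15-fold for Retnlg. The count of 4 and the median of 0.87 therefore lean towards that pool. In the CM-MRKO response Ltf was also tested only through the CM-MRKO DOC/salt pool, with a bound of at least 1.065-fold. The median of 0.34 there leans the same way. In the WT response 2 of 4 were called higher (8.98% of all genes), with a median of 0.45, and between the vehicle pools 3 of 5 (7.59%), with a median of 0.87. S100a9, called in both, was undetected in WT vehicle hearts, with bounds of at least 1.71-fold and at least 2.37-fold. Retnlg, called between the vehicle pools, was undetected there too, at least 1.12-fold, which falls short of 1.5-fold. Every tested marker except S100a8 was undetected in WT vehicle hearts and entered these 2 comparisons only through the other pool. Their counts and medians lean towards that other pool. S100a8, a calcium-binding protein gene of neutrophils and the only marker detected in all pools, was at 1578.5 in CM-MRKO DOC/salt, 888.5 in CM-MRKO vehicle, 660.9 in WT DOC/salt and 249.3 in WT vehicle hearts. It was the largest single part of the sum in each pool, so the sums do not show a gradient shared by all the markers. Neutrophils also carry Lyz2 and Cd14, and their part in the values of these genes was not tested. Of 13 monocyte markers 9 had a probe, and 6 of these were detected on no array, among them Ccr2, the receptor that brings monocytes into tissue. The summed deposited intensity of the 9 was 1564.8 in CM-MRKO DOC/salt, 1400.8 in CM-MRKO vehicle, 1414.6 in WT DOC/salt and 1099.3 in WT vehicle hearts, and it too carries the brightness of each array. Of 8 dendritic cell markers 0 to 1 were detected per array, and of 8 T and B cell markers with a probe also 0 to 1. The pan-leukocyte genes, 0 of 6 called in the CM-MRKO response and 0 of 6 between genotypes under DOC/salt, had medians of 0.10 and -0.09. In the WT response 2 of 7 were called higher, Laptm5 at 0.66 and Fcer1g, an Fc receptor subunit gene, at 0.63 (8.98% of all genes), with a median of 0.26, and between the vehicle pools 0 of 7 were called, with a median of 0.03. Laptm5, a lysosomal membrane gene of blood cells, was at 2477.5 in CM-MRKO DOC/salt, 2234.8 in CM-MRKO vehicle, 2365.3 in WT DOC/salt and 994.0 in WT vehicle hearts.

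**Figure D5:**
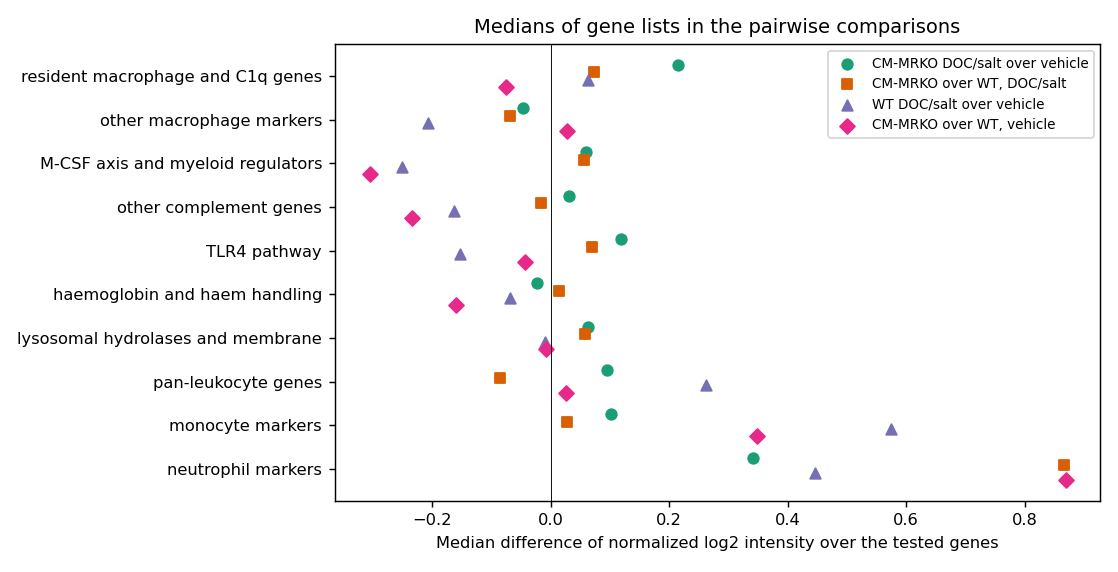
Median difference of normalized log2 intensity over the tested genes of 10 lists in the 4 pairwise comparisons. The resident macrophage and C1q genes lie at 0.21, 0.07, 0.06 and -0.08. The neutrophil markers lie to the right of 0.3 in all 4 comparisons, but each of their medians draws in part on values undetected in the dimmer pool.

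The pattern of the C1q genes over the 4 arrays was nearly flat after normalization. The mean-centred average of the 3 genes was 0.06 in CM-MRKO DOC/salt, -0.07 in CM-MRKO vehicle, -0.03 in WT DOC/salt and 0.04 in WT vehicle hearts. Among genes detected on all 4 arrays, the 5 with the smallest Euclidean distance to it over these 4 values were Grb10, B3galt4, Gimap1, Lrrc14b and Pabpn1, at 0.0162 to 0.0256. So flat a pattern is common, since 767 of 5467 genes lay within 0.15 of it. Of the other measured genes Mrc1 lay at 0.12, Cd14 at 0.28, Lyz1 at 0.45 and Lyz2 at 0.49, where the median gene lay at 0.27.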

How the data were processed

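Whole-heart RNA was measured on 1-colour Illumina bead arrays, 1 pool of 8 hearts for each of 4 groups, with groups taken from the source label. One protocol field gives vehicle for every sample, against the other labels, and was set aside. The deposited values are linear bead intensities whose floor and median differ between arrays. Partek, without a version, appears in the submitters' processing notes; no source used here describes a background correction or scaling. A further table with 4 columns whose names match no sample was not used.

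Intensities were corrected with normexp (maximum likelihood, offset 16), quantile normalized and taken to log2 in limma 3.58.1 under R 4.3.3. Symbols came from the platform annotation: 23978 of 25697 probes had 1 symbol, 0 had several and 1719 none, and 23962 matched the GRCm38.p6 gene table by gene identifier. A gene was represented by its brightest probe by mean deposited intensity, and tested if detected on at least 1 array of a comparison. Where a probe was detected on 1 array of a pair, a bound is given in which the dimmer value is the higher of its own and the lowest normalized value of a detected probe on that array. For the technical spread, the log2 differences of a gene's 2 brightest detected probes were subtracted, and the SD of the results was divided by the square root of 2. The number of arrays, 4, limits the precision.

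The additive fit used lmFit and eBayes with Benjamini-Hochberg adjustment. On simulated arrays of 6836 genes with the spread of the CM-MRKO pair, it recovered 81% of genes changed 1.5-fold by DOC/salt and 100% of those changed 2-fold; the spread over the real 4 arrays was larger. The 1.5-fold call for the CM-MRKO response recovered 49% and 97%. The named genes were all 10 genes with every probe, up to 4 members of each other list per comparison, called genes by size first and then the brightest, and the 5 genes nearest to the C1q pattern; names of undetected markers were added after their values were seen. The genes, lists and tests were chosen with earlier results of these data known. Myl2 and Nr3c2 were looked up as checks of the model. Alternatives in background correction, normalization, detection, filtering and choice of probe were recomputed.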

Additional observations from a re-analysis of the deposited data

Results flagged for a closer look

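Lyz1, C1qb and C1qc had DOC/salt responses of opposite sign in the 2 genotypes; with 1 pool per group the difference was not tested. The log2 difference of the brightest Lyz1 probe was -0.11 in CM-MRKO hearts and 0.50 in WT hearts. The CM-MRKO value lay within the technical spread of 0.17, and with the mean of detected probes Lyz1 was above 0 in both genotypes, at 0.09 in CM-MRKO and 0.02 in WT hearts. C1qb differed by 0.0158 in CM-MRKO hearts and -0.15 in WT hearts, and C1qc by 0.10 in CM-MRKO hearts and -0.10 in WT hearts. All 4 C1q values lay within the technical spread of their comparisons, and on the deposited values C1qb and C1qc were above 0 in both genotypes.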

How the results depend on the processing

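No paired analysis was possible because each group is 1 pooled sample on 1 array, and for the same reason no replicate could be left out. The median of the macrophage and C1q genes moved most with the 2 scalings that leave the WT vehicle array dim: with median scaling it was 0.60 in the WT response (4 of 8 genes called higher), 0.43 between the vehicle pools (1 called higher) and -0.27 in the difference of responses; as deposited it was 0.52 (3 called higher), 0.53 (2 called higher) and -0.34. In these 3 comparisons all genes had medians of 0.39, 0.37 and -0.36 with median scaling, and of 0.39, 0.44 and -0.29 as deposited. With median scaling 30.8% of all genes were called in either direction in the WT response and 27.5% between the vehicle pools. As deposited these shares were 27.1% and 29.8%. With scaling to detected probes the median of the macrophage and C1q genes was 0.15 in the WT response. Between the vehicle pools it changed sign, to 0.01 against -0.08. In the WT response 0 genes were called higher without background correction, with offset 50, with scaling to detected probes, or over genes detected on every array. The Lyz1 difference of responses turned to 0.0642 with the mean of detected probes, leaving 0 genes called lower; with scaling to detected probes 0 were called lower and 1, Adgre1, higher. No alternative made any of the 9 genes pass limma's adjusted p; the lowest was 0.507 for DOC/salt and 0.400 for genotype.

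Counts over all genes moved by more than 1.5 times as follows. In the CM-MRKO response, 42 higher and 29 lower became 5 and 3 without background correction, 8 and 6 with offset 50, 7 and 1 as deposited, 181 and 180 with no filter on dim probes, and 68 and 58 with a detection share of 0.05; 65 were higher with median scaling and 14 over genes detected on every array. Between genotypes under DOC/salt, 60 higher and 64 lower became 9 and 17 without background correction, 12 and 20 with offset 50, 28 and 11 as deposited, 212 and 201 with no filter, and 30 and 42 over genes detected on every array; 91 were higher with a detection share of 0.05. In the WT response, 574 higher and 261 lower became 240 and 39 without background correction, 321 and 83 with offset 50, 1961 and 10 with median scaling, 1731 and 2 as deposited, and 878 and 572 with no filter; 341 were higher over genes detected on every array. Between the vehicle pools, 483 higher and 163 lower became 200 and 11 without background correction, 269 and 30 with offset 50, 1747 and 5 with median scaling, 1897 and 0 as deposited, and 777 and 481 with no filter; 282 were higher over genes detected on every array. In the difference of responses, 463 higher and 704 lower became 99 and 307 without background correction, 187 and 415 with offset 50, 70 and 1999 with median scaling, 2 and 1385 as deposited, and 1234 and 1415 with no filter; 416 were lower over genes detected on every array. In the additive fit, genes past limma's adjusted p numbered 33 for DOC/salt and 24 for genotype with median scaling, 21 and 23 with no filter, and 1 for genotype with the intensity trend, without background correction, with offset 50, as deposited, and over genes detected on every array. The causes were not tested. Adgre1 and the second Lyz1 probe lie too near background for their differences to be more than bounds. Cd163 and the second Lyz2 probe lie near background too, and were undetected in the WT vehicle pool. Their differences from that pool are no more than bounds.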
